A study of Mus musculus with 12 samples.

Results

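The 8 genes described here, of 29486 listed, supply the deoxynucleotides of DNA: Rrm1, Rrm2 and Rrm2b (the subunits of ribonucleotide reductase), Tyms (thymidylate synthase), Dut (dUTPase), Dctd (dCMP deaminase), Tk1 (thymidine kinase) and Dck (deoxycytidine kinase). They were chosen by gene name. All 8 passed the filter on low values (10 or more in 4 or more libraries), as 15579 genes did. Their mRNA was measured by mRNAseq in primary splenic B cells of C57BL/6Babr mice of 8 to 12 weeks, isolated with a B cell isolation kit and activated with the mitogen LPS. Each of 3 conditions had 4 libraries, and no condition had KU55933 without etoposide. Cells received LPS alone at 10 μg/ml for 48 h, LPS followed by 20 μM etoposide for 4 h, or LPS with 10 μM KU55933 added 1 h ahead of the same etoposide. The time with LPS was listed as 48 h for both conditions without KU55933 and as 47 h for that with it. Etoposide traps topoisomerase II on DNA and leaves double-strand breaks, and KU55933 inhibits ATM, the kinase that signals such breaks to p53. The labels do not state whether cells with LPS alone were kept for the hours that etoposide took. The Illumina indexes of a condition occur in no other condition, so that index and treatment cannot be told apart.

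Ribonucleotide reductase turns ribonucleoside diphosphates into deoxyribonucleoside diphosphates and needs a large subunit, Rrm1, together with a small subunit. Rrm2 is the small subunit of dividing cells, made mainly in S phase, and Rrm2b is the alternative small subunit, known as a target of p53. Thymidylate has its own route. Dctd and Dut provide dUMP, Tyms methylates it to dTMP with a folate cofactor, and Tk1 and Dck recover thymidine and deoxycytidine from outside the route. LPS drives resting B cells into division, in which these enzymes are in use.

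Each deposited normalized count is a fitted mean of its condition, scaled to the size of its library. The 4 columns of a condition are proportional over all genes, to within 1.4e-14 in log2 units. They therefore hold no spread between replicates, and no difference below could be tested against one. Each gene has 1 value per condition, the column divided by its size factor, and this is called its normalized count here. Size factors ran from 0.788 to 0.910 with LPS, from 0.996 to 1.352 with etoposide and from 0.911 to 1.119 with KU55933 plus etoposide. These factors alone would therefore place all treated columns of an unchanged gene above its LPS columns. Factors recovered from the authors' pooled mean, an alternative scaling, reached 0.948 with LPS and began at 0.916 with KU55933 plus etoposide. With those, the LPS columns would overlap the columns with KU55933 plus etoposide. The order of columns between conditions is not read as a result. Column totals, which stand for depth, ranged from 20739978 to 23935658 with LPS, from 22523516 to 30575195 with etoposide and from 20400994 to 25052093 with KU55933 plus etoposide. Differences are log2 ratios of normalized counts plus 1, and a difference past 1.5-fold is counted as higher or lower beside the share of all 15579 genes that lay past it. The 95% intervals given for some differences take these values as reads, cover counting error only and are a lower limit of the true error. The 9 B cell markers examined had summed normalized counts of 233538, 142610 and 152049 in the order LPS, etoposide, and KU55933 with etoposide. Of 8 T cell markers only Cd2 and Lck passed the filter, and the other 6, among them Cd3e and Cd4, had normalized counts of at most 4.05. The sums were 1593, 698 and 833 for the T cell list, 443, 467 and 438 for the 8 macrophage markers (6 past the filter) and 235, 215 and 134 for the 8 red blood cell markers (4 past the filter). With etoposide, 8 of the 9 B cell markers and both T cell markers past the filter were lower past 1.5-fold. Of the macrophage markers 3 were higher and 1 lower, and of the red blood cell markers 2 and 2. Of all genes 19.7% were higher and 20.1% lower. The part of these markers in the results was not tested.

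With etoposide, the 8 genes did not move as a block. Compared with LPS alone, Rrm2 was higher past 1.5-fold, and Tk1, Dctd and Rrm1 were lower. Dck and Rrm2b were higher and Tyms and Dut lower by less than 1.5-fold. Among all genes, 39.8% lay past 1.5-fold in this comparison, 19.7% higher and 20.1% lower, against 4 of 8 here. The median log2 difference of the 8 genes was -0.36, against -0.11 for all genes. In these bulk samples, fewer cells that make a transcript and less transcript per cell cannot be told apart.

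**Figure D1:**
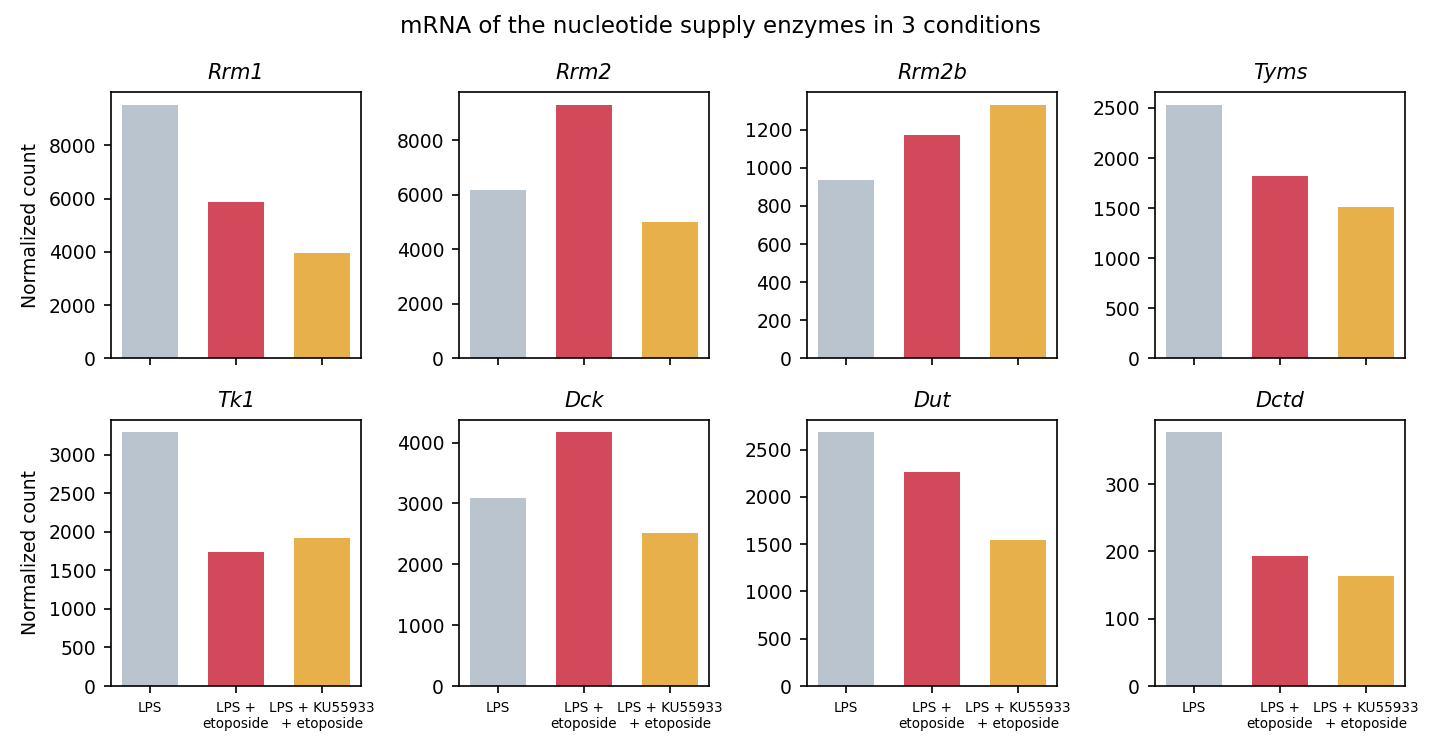
Normalized counts (fitted mean of the condition, 1 bar per condition) of the 8 genes, on a linear axis from 0 that differs between panels. Rrm2 and Dck were highest with etoposide, Rrm2b was highest with KU55933 plus etoposide, and the other 5 genes were highest with LPS alone.

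Rrm1, the large subunit of the reductase that also carries its catalytic and regulatory sites, is encoded at chr7:102441695-102469771 on the plus strand (GRCm38). In the 4 LPS columns as deposited, Rrm1 stood at 7507, 8328, 8663 and 7806. The etoposide columns held 5835, 6540, 7921 and 6340. The columns with KU55933 plus etoposide held 3606, 4067, 4357 and 4428. The library size factors are still in these columns. After division, normalized counts were 9524 with LPS, 5858 with etoposide and 3957 with KU55933 plus etoposide. Rrm1 was thus lower in both steps, by a log2 difference of -0.70 with etoposide (counting interval -0.72 to -0.68) and of -0.57 from etoposide to KU55933 with etoposide. The second value lies just within 1.5-fold, and is -0.60, just past it, with the scaling recovered from the authors' pooled mean. In the first step, library totals as the scaling gave -0.48 and quantile normalization -0.29, both within 1.5-fold. From LPS to KU55933 with etoposide the log2 difference was -1.27, the lowest of the 8 genes, and only 3.67% of all genes had a lower value.

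Rrm2, at chr12:24708241-24714146 on the plus strand, is the subunit that brings the tyrosyl radical to the enzyme in dividing cells. As deposited, its LPS columns held 4877, 5411, 5629 and 5072. The etoposide columns held 9264, 10383, 12575 and 10066, and those with KU55933 plus etoposide 4544, 5124, 5489 and 5579. The normalized count was 6188 with LPS, 9301 with etoposide and 4986 with KU55933 plus etoposide. The log2 difference with etoposide was 0.59 (counting interval 0.56 to 0.61), at the edge of 1.5-fold, and ranged from 0.62 to 0.95 over 4 other scalings. With KU55933 under etoposide, Rrm2 had 0.536 times its etoposide value, a log2 difference of -0.90 that ranged from -0.93 to -0.88 over the same scalings. Alone of the 8 genes, Rrm2 was higher past 1.5-fold in the first step and lower past it in the second step, a pattern that 8.02% of all genes had. Both steps share the etoposide libraries. Against LPS alone, its value with KU55933 plus etoposide differed by -0.31, and by 0.07 under quantile normalization, so that no direction can be given there.

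Rrm2b, at chr15:37923952-37961318 on the minus strand, had columns from 738 to 851 with LPS, from 1166 to 1583 with etoposide and from 1214 to 1490 with KU55933 plus etoposide. Library size is still in these columns, so the order of their ranges is not read as a result. Normalized counts were 936, 1171 and 1332. Rrm2b was the only one of the 8 genes above 0 in both steps, by 0.32 with etoposide (counting interval 0.26 to 0.39) and by 0.19 with KU55933 under etoposide, both within 1.5-fold. Such a sign pattern was shared by 14.2% of all genes. Its log2 difference from LPS to KU55933 with etoposide was 0.51, and it passed 1.5-fold as 0.74 with library totals and 0.60 with quantile normalization. The reads of Rrm2b may include others, since 734 of its exonic bases (8.04%) lie under an antisense transcript and the sources used here do not state whether reads were counted by strand.

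Rrm2b was read beside 30 other genes known as p53 targets. Of these, 27 were higher past 1.5-fold with etoposide and none lower, against 19.7% and 20.1% of all genes. The median log2 difference of the 30 was 2.62. The largest differences were those of Plk2, at 5.14 on the log2 scale, Perp, at 5.08 and from a normalized count of only 4.81 with LPS, and Cdkn1a (the cell cycle inhibitor p21), at 4.94. The normalized count of Cdkn1a was 427 with LPS and 13120 with etoposide. In that order Rrm2b, at 0.32, had 27 of the 30 above it and 3 below. When KU55933 was added, 14 of the 30 were lower past 1.5-fold and none higher, against 10.9% and 7.86% of all genes. The median of the 30 was -0.56, and Cdkn1a stood at 10739. Rrm2b, at 0.19, had 2 of the 30 above it and 28 below.

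**Figure D2:**
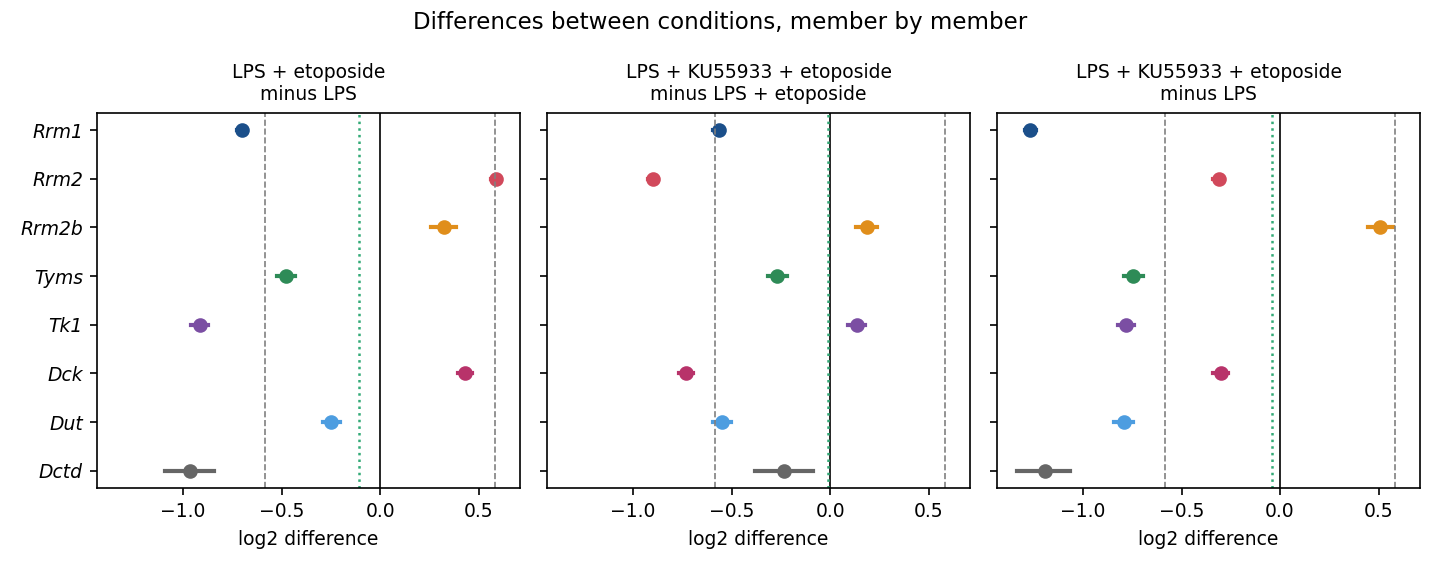
Log2 differences of normalized counts between conditions for each of the 8 genes. Dots are the values, bars their 95% counting intervals, dashed lines 1.5-fold and the green dotted line the median of 15579 genes; in the middle panel Rrm2 (-0.90) and Dck (-0.73) lie past the left dashed line.

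Ratios between genes of the same libraries do not depend on the size factor. The Rrm2 to Rrm1 ratio of normalized counts was 0.650 with LPS, 1.59 with etoposide and 1.26 with KU55933 plus etoposide. Per kilobase of exon, Rrm2 was 2.58, 6.31 and 5.01 times Rrm1 in the same order, and 1.62, 3.96 and 3.15 times with the longest transcript of each gene as the length. With Rrm2b added to Rrm2, the small subunits were 2.70, 6.55 and 5.41 times Rrm1 per kilobase of exon. Most of the gap that opened with etoposide therefore remained with KU55933, where both mRNAs were lower than with etoposide. Within the small subunits, Rrm2 exceeded Rrm2b by 21.8 times per kilobase with LPS, 26.2 times with etoposide and 12.3 times with KU55933 plus etoposide, and by 13.8, 16.5 and 7.79 times with the longest transcript. Rrm2b made up 4.39%, 3.68% and 7.50% of the small subunit mRNA per kilobase. With the longest transcript of each gene in place of all its exons these shares were 6.78%, 5.71% and 11.4%, in the same order of conditions. The Rrm1 to Rrm2b ratio of normalized counts was 10.2 with LPS, 5.00 with etoposide and 2.97 with KU55933 plus etoposide, lower at each step.

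**Figure D3:**
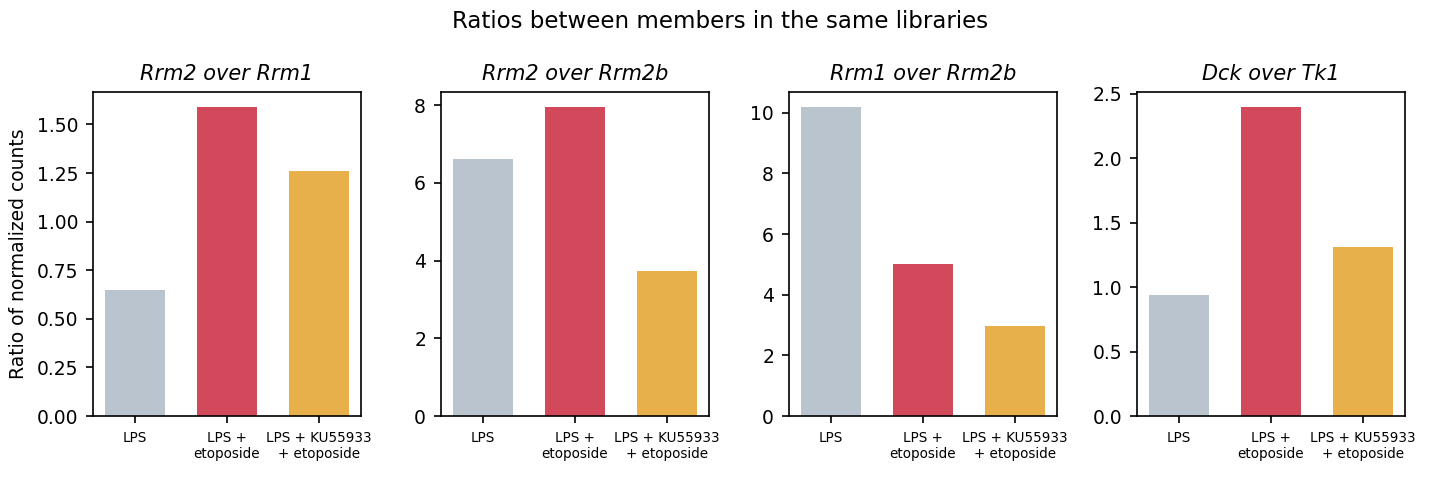
Ratios of normalized counts (no unit, axes from 0) between genes of the same libraries in the 3 conditions. They are not corrected for length. The Rrm2 to Rrm1 ratio is higher with etoposide (0.650 to 1.59), the Rrm1 to Rrm2b ratio is lower at each step (10.2, 5.00, 2.97), and the Dck to Tk1 ratio is highest with etoposide (2.39).

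On the thymidylate route, all 3 enzymes had their highest value with LPS and their lowest with KU55933 plus etoposide. Of all genes, 22.3% were likewise lower in both steps, and so was Rrm1, which is not of this route. Dctd, at chr8:48099092-48153233 on the plus strand, deaminates dCMP to dUMP and had the fewest counts of the 8 genes, with columns from 297 to 343 with LPS, 192 to 261 with etoposide and 150 to 184 with KU55933 plus etoposide. Its normalized counts of 377, 193 and 164 gave log2 differences of -0.96 with etoposide (counting interval -1.09 to -0.84) and -0.23 with KU55933 under etoposide, and -1.20 over both steps. These few counts make its interval the widest of the 8.

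Dut, at chr2:125247190-125258608 on the plus strand, hydrolyses dUTP to dUMP and so keeps uracil out of DNA. Its columns ran from 2114 to 2440 with LPS, from 2251 to 3056 with etoposide and from 1409 to 1731 with KU55933 plus etoposide. Normalized counts were 2682, 2260 and 1546. The log2 difference with etoposide was -0.25, and -0.03 with library totals. With KU55933 under etoposide it was -0.55, within 1.5-fold, and against LPS -0.79.

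Tyms, at chr5:30058202-30073617 on the minus strand, had columns from 1996 to 2304 with LPS, from 1812 to 2460 with etoposide and from 1377 to 1691 with KU55933 plus etoposide. Its normalized counts of 2532, 1819 and 1511 gave log2 differences of -0.48 and -0.27 in the steps and -0.74 over both. Tyms and Dut act one after the other in the route, and the ratio of their normalized counts was 0.944 with LPS, 0.805 with etoposide and 0.977 with KU55933 plus etoposide.

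The salvage kinases went opposite ways with etoposide. Tk1, at chr11:117815526-117826092 on the minus strand, phosphorylates thymidine and is made mainly in S phase. Its columns held 2592, 2875, 2991 and 2695 with LPS, 1735, 1945, 2356 and 1886 with etoposide, and 1743, 1965, 2105 and 2140 with KU55933 plus etoposide. Normalized counts were 3288, 1742 and 1912, and the log2 difference with etoposide was -0.92 (counting interval -0.96 to -0.87). Tk1 was the only gene of the 8 that was lower in the first step and above 0 in the second, at 0.13, a sign pattern seen in 34.7% of all genes. Of its exonic bases, 83 overlap the gene Afmid on the opposite strand, whose normalized counts were 185, 163 and 249.

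Dck, at chr5:88764996-88783281 on the plus strand, phosphorylates deoxycytidine as well as purine deoxynucleosides. Its columns held 2439, 2706, 2815 and 2537 with LPS, 4151, 4653, 5635 and 4511 with etoposide, and 2288, 2580, 2764 and 2810 with KU55933 plus etoposide. Normalized counts were 3095, 4168 and 2511. The log2 difference with etoposide was 0.43 (counting interval 0.39 to 0.46), within 1.5-fold, and 0.65 with library totals and 0.67 with quantile normalization, past it. With KU55933 under etoposide it was -0.73, past 1.5-fold under every scaling tried. The Dck to Tk1 ratio of normalized counts was 0.941 with LPS, 2.39 with etoposide and 1.31 with KU55933 plus etoposide.

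When KU55933 was added to etoposide, Rrm2 and Dck were lower past 1.5-fold and none of the 8 genes higher past it. Among all genes, 10.9% were lower and 7.86% higher past 1.5-fold, 18.7% together, against 2 of 8 here. The median log2 difference of the 8 was -0.41, and that of all genes -0.0087. From LPS to KU55933 with etoposide, Rrm1, Dctd, Dut, Tk1 and Tyms were lower past 1.5-fold and none higher, or 5 of 8, whereas 18.0% of all genes were lower and 18.7% higher, 36.7% together. The medians there were -0.76 and -0.04. With library totals, which shift the median of all genes by 0.22 with etoposide and by 0.24 from LPS to KU55933 with etoposide, that count was 2 lower (Rrm1 and Dctd) and 1 higher (Rrm2b), where 10.4% of all genes were lower and 26.8% higher. At 2-fold, none of the 8 was called in the first 2 comparisons, where 20.5% and 6.26% of all genes were, and Rrm1 and Dctd were lower in the last, where 16.9% of all genes were called.

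**Figure D4:**
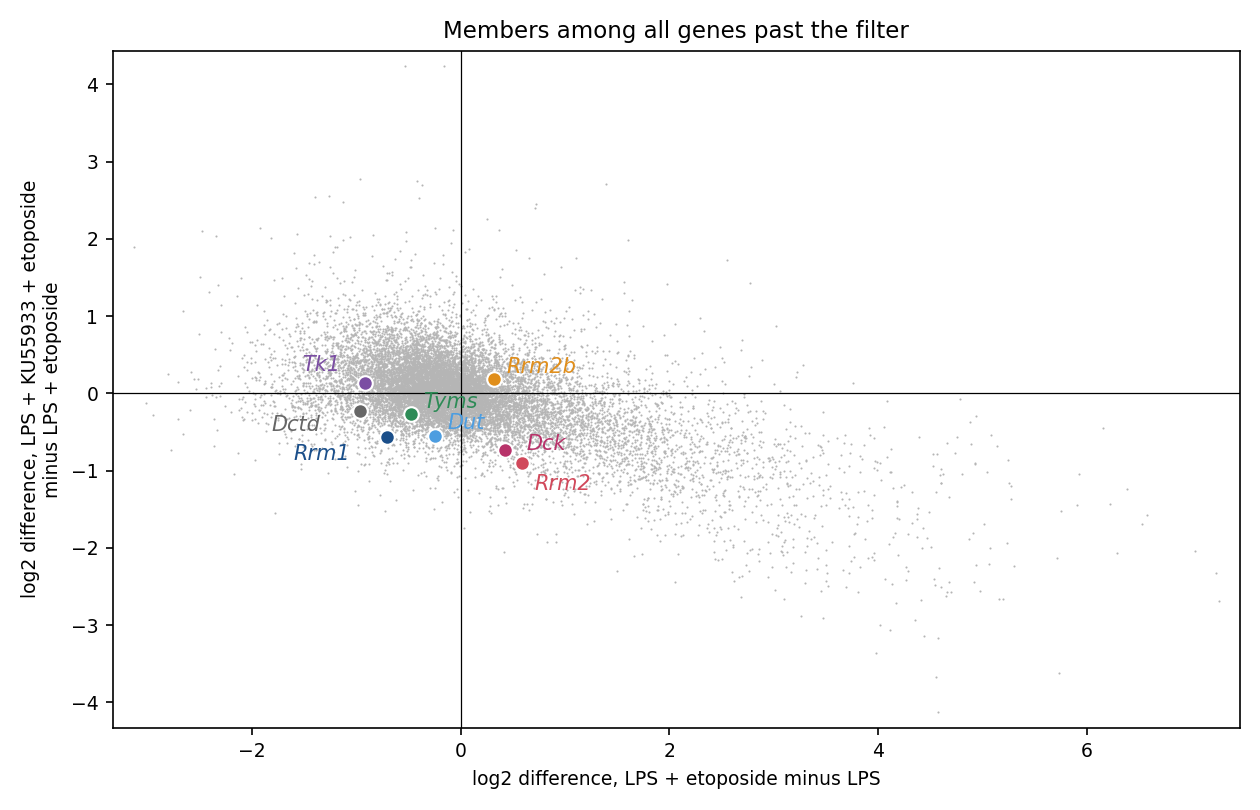
Log2 difference with etoposide (horizontal) against that with KU55933 under etoposide (vertical) for 15579 genes, as grey dots, with the 8 genes as coloured dots. The axes share the etoposide libraries, which enter them with opposite sign; Rrm2 and Dck lie at the lower right, Rrm1, Tyms, Dut and Dctd at the lower left, Tk1 at the upper left and Rrm2b at the upper right.

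In the pair of differences from LPS, the closest genes of the 8 were Rrm2 and Dck, at a Euclidean distance of 0.16, followed by Tyms and Dut at 0.24. Over the 10876 genes whose mean normalized count reached 100, the 5 nearest to Rrm2 were Txnip, Glrx, Arhgap21, Ccnf and Dusp7, with distances from 0.068 to 0.094. The 5 nearest to Rrm2b were Ppapdc2, Rab11fip2, Tbc1d17, Gm26848 and Map3k15, with distances from 0.012 to 0.032. The likeness rests on 3 fitted values per gene.

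Promoter windows were examined for the genes that moved together and apart. RefSeq windows on GRCm38.p6, from 250 bases before the start to 50 after it, matched 7 of the 8 genes, and none matched Rrm2b. Those of Rrm2 (chr12:24708004-24708303, plus strand), Dck (chr5:88764763-88765062, plus strand) and Rrm1 (chr7:102441445-102441744, plus strand) are shown 5′ to 3′. Rrm2 and Dck are the closest pair, and Rrm1 is the partner subunit that went the other way with etoposide. Capitals mark CCAAT and GGGCGG, or their reverse complements ATTGG and CCGCCC.
Rrm2: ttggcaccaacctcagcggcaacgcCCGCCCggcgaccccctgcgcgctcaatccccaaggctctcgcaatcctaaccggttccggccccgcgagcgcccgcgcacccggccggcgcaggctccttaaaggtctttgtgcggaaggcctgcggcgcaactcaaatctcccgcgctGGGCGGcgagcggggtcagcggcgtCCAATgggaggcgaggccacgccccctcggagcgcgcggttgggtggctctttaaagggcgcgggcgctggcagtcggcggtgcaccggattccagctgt
Dck: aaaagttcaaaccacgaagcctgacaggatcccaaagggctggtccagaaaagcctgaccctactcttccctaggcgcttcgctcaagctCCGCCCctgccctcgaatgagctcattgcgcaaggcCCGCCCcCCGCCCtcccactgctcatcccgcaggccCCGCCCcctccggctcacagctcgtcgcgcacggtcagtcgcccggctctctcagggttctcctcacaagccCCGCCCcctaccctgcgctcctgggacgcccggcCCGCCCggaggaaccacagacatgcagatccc
Rrm1: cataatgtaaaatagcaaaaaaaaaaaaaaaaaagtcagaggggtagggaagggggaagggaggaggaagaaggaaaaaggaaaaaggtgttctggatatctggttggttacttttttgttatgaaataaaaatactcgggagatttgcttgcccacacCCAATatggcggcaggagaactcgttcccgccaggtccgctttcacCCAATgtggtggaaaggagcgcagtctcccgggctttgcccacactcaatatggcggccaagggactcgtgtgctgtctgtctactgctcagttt

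The Rrm2 window held CCAAT once, with its first base 50 bases before the start, and GGGCGG 2 times. The Dck window held no CCAAT and 6 matches to GGGCGG, all on the reverse strand and none overlapping another. The Rrm1 window held CCAAT 2 times, at 91 and 45 bases before the start, and no GGGCGG. Of 32851 windows of the same length, 37.4% held CCAAT and 35.7% GGGCGG on either strand. Rrm2 and Dck thus differed in CCAAT, and both held GGGCGG. The windows of Tyms and Dut, the next closest pair, each held no CCAAT and 1 match to GGGCGG. The E2F letters TTTCCCGC, TTTGGCGC, TTTCGCGC and TTTGCCGC, in 2.26% of all windows, occurred in none of the 9 windows of the 7 genes. These motifs were chosen with the values known, and a match is a description of letters, not of binding.

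Levels between genes were compared per kilobase of exon, over all annotated exons. Rrm2 was the highest of the 8 in all 3 conditions, at 2233, 3356 and 1799 normalized counts per kilobase. With LPS, Dut (1113), Rrm1 (865) and Dck (819) followed. With etoposide, Dck was second at 1102, ahead of Dut (938) and Rrm1 (532), and it stayed second with KU55933 plus etoposide at 664, where Dut had 642. Tk1 stood at 633, 335 and 368, and Tyms at 416, 299 and 248. Rrm2b (102, 128 and 146) and Dctd (111, 56.6 and 48.1) were the lowest pair in every condition. Without replicate values, neighbours in these orders cannot be compared with a spread, and with the longest transcript as the length Rrm1 came second with LPS (1739) and Tk1 (1321) passed Dck (1005).

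Around the members, 51 of 54 other nucleotide genes passed the filter. With etoposide 7 of these 51 were higher past 1.5-fold (13.7%) and 14 lower (27.5%), against 19.7% and 20.1% of all genes. With KU55933 under etoposide 6 were higher (11.8%) and 10 lower (19.6%), against 7.86% and 10.9% of all genes. The medians were -0.17 and -0.10, against -0.11 and -0.0087 for all genes. These shares of all genes also stand beside the counts of the smaller lists that follow. In the list for deoxynucleotide balance, 2 of 17 genes were higher and 2 lower with etoposide, and 3 were higher and 3 lower with KU55933 under etoposide. The largest difference was that of Nme4, a mitochondrial nucleoside diphosphate kinase, which stood at 96.2, 463 and 219, log2 differences of 2.25 with etoposide and -1.07 with KU55933 under etoposide. Its relative Nme1 stood at 1614, 1729 and 984, and Nme6 at 417, 221 and 295. Samhd1, which degrades dNTPs and so opposes the reductase, was the lowest of them with etoposide. Its normalized count was 13156 with LPS, 4525 with etoposide and 7303 with KU55933 plus etoposide, log2 differences of -1.54 and 0.69. Dtymk, which phosphorylates dTMP, stood at 1813, 1599 and 1423, within 1.5-fold in both steps. Cmpk2, a mitochondrial UMP/CMP kinase, stood at 1105, 862 and 1732, and Tk2, the mitochondrial thymidine kinase, at 507, 386 and 648, both higher past 1.5-fold with KU55933 under etoposide. The cytosolic Tk1 was at 0.13 in that step.

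Among the 8 genes that supply the folate cofactor of Tyms, 4 were lower past 1.5-fold with etoposide and none higher, and 2 were higher and 1 lower with KU55933 under etoposide. With library totals the count with etoposide was 1 lower in place of 4, where 11.9% of all genes were lower in place of 20.1%. The lowest with etoposide was Mthfd1l, of the mitochondrial branch, which stood at 4846, 2140 and 2190. Shmt2 and Mthfd2, of the same branch, stood at 11617, 6706 and 10695 and at 5115, 3399 and 6655. They were higher in the second step by 0.67 and 0.97 on the log2 scale, whereas Mthfd1l was at 0.03, so that the branch did not move as one. Mthfd2l, also mitochondrial, was at -0.04, from normalized counts of only 27.9, 34.6 and 33.7. The cytosolic Mthfd1 stood at 3782, 4393 and 2376, and Shmt1 at 1929, 1182 and 822.

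The 8 pyrimidine nucleotide genes were 5 of de novo synthesis (Cad, Dhodh, Umps, Ctps and Ctps2) and the 3 uridine-cytidine kinases of salvage (Uck1, Uck2 and Uckl1). Of the 8, 1 was higher (Cad) and 3 lower (Ctps2, Uck2 and Dhodh) past 1.5-fold with etoposide, and 1 was higher (Uckl1) and 1 lower (Cad) with KU55933 under etoposide. Cad, which carries out the first steps of the de novo route, stood at 7546, 20001 and 10427 in the 3 conditions. The log2 differences of 1.41 and -0.94 had the signs of those of Rrm2 and Dck, a sign pattern that 28.7% of all genes had. Of 13 genes of de novo purine synthesis, 2 were higher and 4 lower with etoposide and none higher and 2 lower with KU55933. With library totals 1 of the 13 was lower with etoposide, against 11.9% of all genes. Impdh1, which commits IMP to guanine nucleotides, stood at 1075, 1889 and 1565, and its relative Impdh2 at 10239, 11065 and 10636. Prps2, a synthetase of the sugar phosphate that purines are built on, stood at 2815, 4435 and 2508, and its relative Prps1 at 1944, 1621 and 1411. Of 5 genes of purine salvage, 2 were higher and 1 lower with etoposide, and none higher and 3 lower with KU55933. Aprt stood at 2046, 5828 and 3584, and Ada, which deaminates deoxyadenosine, at 422, 794 and 224. Adk was lower in both steps, at 858, 433 and 297.

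**Figure D5:**
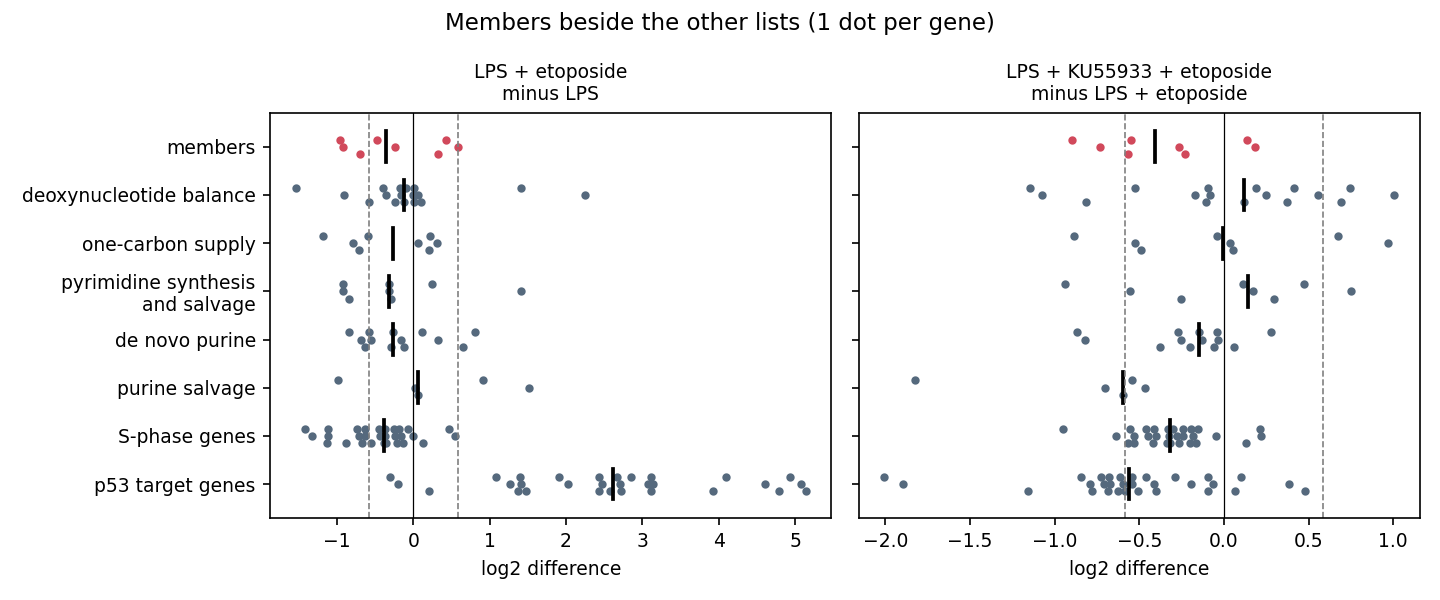
Log2 differences with etoposide (left) and with KU55933 under etoposide (right), 1 dot per gene, for the 8 members and 7 other lists. Black bars are list medians and dashed lines 1.5-fold; the p53 targets (median 2.62) stand apart on the left, and the members' medians are -0.36 and -0.41.

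The members were last set beside 29 S-phase genes (replication factors, cyclins and E2F genes). Of these, 11 were lower past 1.5-fold with etoposide and none higher, against 20.1% and 19.7% of all genes. The median log2 difference of the 29 was -0.38. With library totals 6 were lower and 2 higher, against 11.9% and 25.3% of all genes, and the median of the 29 was -0.16. With KU55933 under etoposide 2 were lower and none higher, against 10.9% and 7.86% of all genes, and the median of the 29 was -0.32. From LPS to KU55933 with etoposide 19 of 29 were lower and none higher, against 18.0% and 18.7% of all genes. The median of the 29 there was -0.79, against -0.76 for the 8 members. Quantile normalization left 10 lower, against 17.0% of all genes. With etoposide, Rrm2 was above all 29 and Dck above 27 of them. With KU55933 under etoposide, both were below 28 of the 29, and only Ccne2 (588, 817 and 423) was lower, at -0.95. Tk1 was placed the other way round, with 24 of the 29 above it with etoposide and 2 above it with KU55933 under etoposide. Tyms stayed in the middle of the list, with 17 and 12 above it. The lowest of the list with etoposide was Pold1, the catalytic subunit of DNA polymerase delta, which stood at 4322, 1620 and 1886, with a log2 difference of 0.22 in the second step. Pola1, a subunit of DNA polymerase alpha, stood at 3050, 1216 and 987, and Ccna2 at 4942, 2259 and 1449, both lower in each step.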

How the data were processed

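Polyadenylated RNA of 12 libraries was sequenced. Per the labels and the methods of the study, the authors trimmed reads with Trim Galore and cutadapt 1.2.1, mapped them to GRCm38 with TopHat2 2.0.12, took counts per gene (Ensembl 78) from HTSeq and modelled these in DESeq2 1.6.3. By default that version moderates fold changes toward 0, most at low counts. The deposited table holds a signal per gene and library, a fitted mean per condition scaled to library size. The authors' comparison tables hold a mean signal, log2 fold changes, standard errors, a statistic and p-values. Of these only the mean was used, for an alternative scaling.

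The planned test of replicates had no replicate values to run on. Columns were divided by median-of-ratios size factors, genes were kept with at least 10 in at least 4 libraries, and log2 ratios took a pseudocount of 1. Counting intervals are exact conditional binomial intervals at 95%. Python 3.11.15 was used with pandas 2.3.3, scipy 1.17.1, numpy 2.4.6 and, for plots, matplotlib 3.10.9, and the functions were tested on simulated data. Exonic lengths are from GENCODE M21, and promoters from RefSeq.

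The members and lists were chosen with earlier results of these data known. Genes named beside the 8 are the 2 largest rises and 2 largest falls of a list past 1.5-fold with a mean of at least 100, where a result turned on them, Samhd1 and Dtymk, and the 5 genes nearest to Rrm2 and to Rrm2b. Not every gene of these ranks is printed, and the result for 1 gene that the rule always names is not reported here. Some genes were named after their values were seen. These were Cd2, Lck, Cd3e and Cd4 from the T cell list, and Afmid for its overlap. Perp, Mthfd2l, Ctps, Uck1 and Dhodh were so named to complete a list, and Impdh2 and Prps1 to stand beside a relative. Alternatives were 5 other scalings, the columns as deposited among them, pseudocounts of 0.5 and 5, no filter, a minimum of 50, a minimum of 10 in every library, 2-fold as the limit, and the longest transcript as the length.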

Additional observations from a re-analysis of the deposited data

How the results depend on the processing

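The counts of members past 1.5-fold were 4, 2 and 5 for etoposide against LPS, KU55933 with etoposide against etoposide, and KU55933 with etoposide against LPS. Of all genes, 39.8%, 18.7% and 36.7% lay past it in that order. The member counts did not change with trimmed means of log ratios, with pseudocounts of 0.5 or 5, or with any filter tried. Without a filter the shares of all genes were 26.3%, 12.7% and 23.1%. The scaling from the authors' pooled mean gave 4, 3 and 5 (38.3%, 18.8% and 36.2% of all genes). Quantile normalization gave 4, 2 and 4 (38.9%, 19.2% and 34.1%), and library totals 4, 2 and 3 (37.2%, 18.8% and 37.2%). The columns as deposited, which leave library size in the values, gave 3, 4 and 3 (40.5%, 20.2% and 38.6% of all genes). The directions moved more than the totals. With etoposide 1 gene was higher and 3 lower in the report (19.7% and 20.1% of all genes). Library totals (25.3% and 11.9%) and quantile normalization (17.9% and 21.0%) each gave 2 and 2. The columns as deposited (33.2% and 7.35%) gave 3 and 0. At 2-fold the counts were 0, 0 and 2 (Rrm1 and Dctd), against 20.5%, 6.26% and 16.9% of all genes. Over the 4 scalings that remove library size, 1 of 24 log2 differences changed sign (Rrm2, KU55933 with etoposide against LPS) and 7 changed their side of 1.5-fold. No paired analysis was possible because the deposited columns are fitted means of a condition and hold no deviation of a replicate. For the same reason leaving out a replicate would say nothing of the spread and was not run. Depth limits Dctd most, with normalized counts from 164 to 377.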
